A study of Mus musculus with 12 samples.

Results

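The 9 genes described here encode the enzymes that make serine and pass its one-carbon unit to folate, namely Phgdh, Psat1, Psph, Shmt1, Mthfd1, Shmt2, Mthfd2, Mthfd1l, and Aldh1l2. They were chosen by name, with earlier results of these data known, and found by their Ensembl identifiers. All 9 were among the 12591 genes measured. The cells were immortalized fibroblasts from embryos of heterozygous PER2::LUC knock-in mice (C57), which express PER2, a core clock protein, joined to luciferase. Confluent dishes received no drug (CTL), 10 µM Deazaneplanocin A (DZ), an inhibitor of the S-adenosylhomocysteine hydrolase AHCY, 1 mM adenine, or 1 mM S-adenosylmethionine (SAM) for 24 h, and all 4 groups, CTL included, contained 3.3 mM HCl. The comparisons asked how the transcriptome of cells given SAM relates to that of cells given adenine, a product of SAM breakdown, or a known blocker of the methyl cycle.

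Serine is made from the glycolytic intermediate 3-phosphoglycerate in successive steps catalyzed by PHGDH, PSAT1, and PSPH. Serine hydroxymethyltransferases then move a carbon from serine to tetrahydrofolate, SHMT1 in the cytosol and SHMT2 in mitochondria, and the MTHFD enzymes convert the loaded folates into one another so that carbon can leave mitochondria as formate. One-carbon units on folate are used to make purines and thymidylate and to remethylate homocysteine to methionine, the precursor of SAM, and proliferating cells are known for high levels of the mitochondrial branch.

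Values are log2 CPM, the log2 of a gene's reads scaled to a common normalized library size, and the 3 values of a group are given in the order of replicates 1 to 3. The reads on all listed genes ranged from 45649534 to 56789090 per library, and the fewest reads on any of the 9 mRNAs were the 1236 of Shmt1 in CTL replicate 1. Replicates of a group differed by a chi-square per degree of freedom of 4.76 to 7.07 over all genes, except that SAM replicate 3 differed from the other SAM libraries by 15.7 and 19.1. Of the fibroblast markers 10 of 12 were in the table, Dcn and Lum being absent, and their summed level was 14.46 to 14.49 log2 CPM in CTL, 14.79 to 14.83 in DZ, 14.63 to 14.76 in adenine, and 14.03 to 14.14 in SAM. In SAM the means of 8 of the 10 lay above CTL, and those of Fn1 and Fbn1 lay below it, Fn1 at 13.6 in each CTL library and 11.9 to 12.1 in SAM. The epithelial, endothelial, and muscle markers sought were not in the table, and of 6 leukocyte markers only Cd68 was, at 1.60 to 2.00 log2 CPM in CTL, 3.44 to 3.63 in adenine, and 3.96 to 4.14 in SAM. Of the adipocyte markers 2 of 4 were listed, Fabp4 and Pparg, with a sum of 3.30 to 3.34 in CTL, 3.69 to 3.89 in DZ, 2.95 to 3.14 in adenine, and 3.39 to 3.63 in SAM, where the mean of Fabp4 lay above CTL and that of Pparg below it, whereas Adipoq and Plin1 were absent. The part of these marker levels in the results below was not tested, and in RNA from whole dishes fewer cells of a type cannot be told apart from less RNA per cell.

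Each gene was tested with limma in 1 model of all 12 libraries with p-values adjusted over the 12591 genes, and a gene is said to rise or fall where the adjusted p was under 0.01. Replicates were dishes for which no separate cell sources are named, so the p-values measure the spread between dishes. SAM lowered 7 of the 9 mRNAs and raised 1, against 35.7% of all genes lower and 33.7% higher. The median log2 fold change of the 9 was -1.37, whereas that of all genes was -0.015. Adenine lowered 4 and raised 1 of the 9 (31% of all genes were lower and 30.6% higher), with a median of -0.09 (-0.003 for all genes). DZ raised 4 and lowered 0 (22.6% of all genes were higher and 23.4% lower), with a median of 0.13 (-0.006 for all genes). These fold changes rest on the authors' library scaling, since plain read totals would move the median of all genes from -0.015 to 0.107 under SAM. Without SAM replicate 3, 8 of the 9 again passed the test under SAM.

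**Figure D1:**
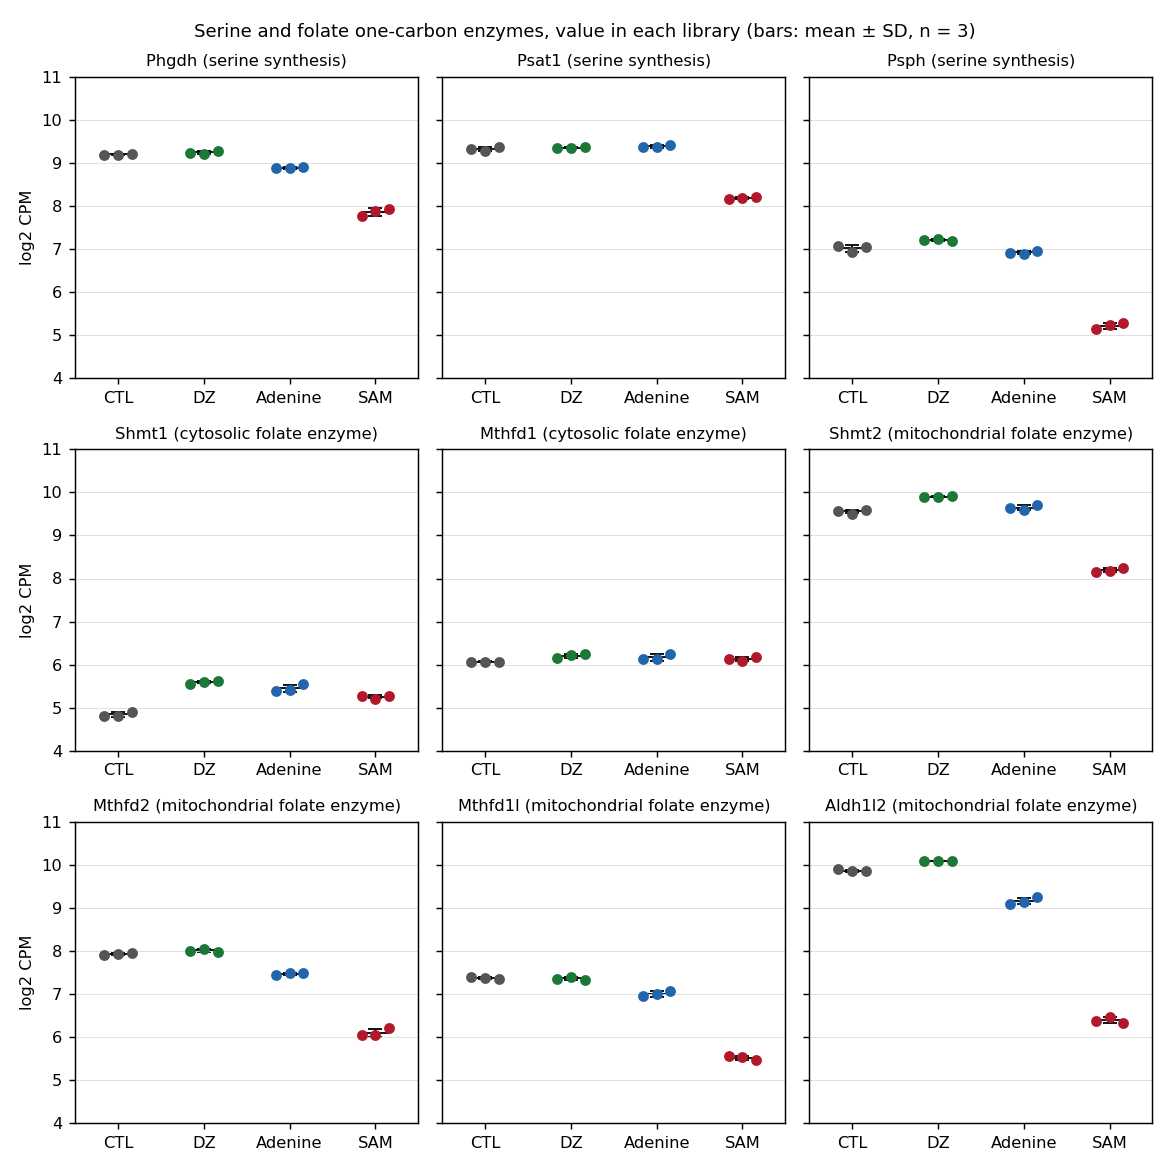
Log2 CPM (vertical axes, same scale in each panel) of the 9 enzyme mRNAs in the 3 libraries of each group (points), with mean and SD (bars). The SAM points lie below all others in 7 panels, whereas in the Shmt1 panel the CTL points are the lowest and in the Mthfd1 panel all points lie between 6.06 and 6.25.

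To show what precedes the genes with the steepest fall and with opposite changes, the 250 bases upstream of the annotated start of Aldh1l2 and of the serine hydroxymethyltransferase pair Shmt2 and Shmt1 are given below. They were read from the GRCm39 genome at the start of the canonical GENCODE vM39 transcript and are written on the minus strand, the coding strand of all of them, with an E-box (CACGTG) in capitals.

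Aldh1l2, chr10:83370006-83370255: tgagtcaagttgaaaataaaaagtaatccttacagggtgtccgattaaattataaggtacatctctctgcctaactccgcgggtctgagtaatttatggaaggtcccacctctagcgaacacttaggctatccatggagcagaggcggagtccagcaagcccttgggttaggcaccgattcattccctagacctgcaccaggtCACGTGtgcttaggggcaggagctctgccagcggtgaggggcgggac

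Shmt2, chr10:127358322-127358571: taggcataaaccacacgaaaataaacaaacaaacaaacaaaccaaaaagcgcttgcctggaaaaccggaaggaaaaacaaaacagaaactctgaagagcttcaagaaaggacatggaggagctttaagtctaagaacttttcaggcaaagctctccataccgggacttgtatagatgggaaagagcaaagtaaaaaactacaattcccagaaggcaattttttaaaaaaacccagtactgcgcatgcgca

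Shmt1, chr11:60702097-60702346: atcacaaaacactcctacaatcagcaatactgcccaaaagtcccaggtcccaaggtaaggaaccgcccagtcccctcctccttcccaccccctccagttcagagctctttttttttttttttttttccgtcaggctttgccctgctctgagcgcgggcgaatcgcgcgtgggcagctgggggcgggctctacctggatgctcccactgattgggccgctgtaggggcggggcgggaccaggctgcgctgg

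The E-box, the core motif bound by MYC and by the clock proteins CLOCK and BMAL1, was sought on both strands from 250 bases before to 50 bases after the start. It was present in 9.62% of the 12575 genes with an annotated start and in 1 of the 9, Aldh1l2, at -47 to -42 from the start. The core of the composite element bound by ATF4 with C/EBP proteins (TGATGNAA, either strand) was present in 2.65% of all windows and in 0 of the 9, which says only that these letters are not in this window.

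In the serine synthesis branch, all 3 mRNAs fell under SAM, by 1.14 to 1.80 on the log2 scale, 1 fell under adenine, and 1 rose under DZ. Phgdh, for phosphoglycerate dehydrogenase, which commits 3-phosphoglycerate to serine synthesis, is at chr3:98220484-98255047 on the minus strand (GRCm39). Its values were 9.20, 9.20, and 9.21 in CTL, 9.24, 9.22, and 9.29 in DZ, 8.89, 8.88, and 8.92 in adenine, and 7.77, 7.90, and 7.93 in SAM. The SAM libraries lay apart from all others, and the adenine libraries lay between them and CTL. Phgdh mRNA was 2.53-fold lower in SAM than in CTL, a log2 fold change of -1.34 ± 0.035 (SE, limma adjusted p = 2.88e-14). It fell by 0.31 in adenine (limma adjusted p = 1.31e-06), whereas the difference of 0.05 in DZ did not pass the test although the libraries did not overlap (limma adjusted p = 0.286). A pair of processed pseudogenes in the table, Gm7901 and Gm9347, match Phgdh transcripts at 98.7% over 1597 bases and 97.4% over 1608 bases, so reads could be shared, and their means went from 5.92 and 3.76 log2 CPM in CTL to 4.87 and 2.46 in SAM.

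Psat1, for the aminotransferase that follows, is at chr19:15882039-15924701 on the minus strand. It stood at 9.34, 9.29, and 9.38 in CTL, 9.35, 9.36, and 9.37 in DZ, 9.38, 9.37, and 9.42 in adenine, and 8.16, 8.20, and 8.22 in SAM. CTL overlapped both DZ and adenine, DZ lay just below adenine, and SAM was far below all of them. Psat1 mRNA was 2.21-fold lower in SAM (-1.14 ± 0.029, limma adjusted p = 2.18e-14), while the difference was 0.02 in DZ, with a 95% interval of -0.04 to 0.08, and 0.05 in adenine, with an interval of -0.01 to 0.11. Psph, for the phosphatase that releases serine (chr5:129841925-129864513, minus strand), had the largest fall of the branch. Its libraries read 7.07, 6.93, and 7.06 in CTL, 7.21, 7.23, and 7.20 in DZ, 6.92, 6.90, and 6.97 in adenine, and 5.14, 5.25, and 5.28 in SAM. Adenine overlapped CTL, DZ lay slightly above it, and the SAM libraries were far below both. Psph mRNA was 3.48-fold lower in SAM (-1.80 ± 0.042, limma adjusted p = 7.88e-15) and rose by 0.19 ± 0.042 in DZ (limma adjusted p = 0.00117). In adenine it differed by -0.09 (limma adjusted p = 0.0616). The exons of Psph share 465 bases with Cct6a, a chaperonin gene on the opposite strand, whose mean went from 8.73 in CTL to 8.35 in SAM.

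The cytosolic folate enzymes followed another pattern: Shmt1 rose under all 3 treatments and Mthfd1 passed the test in none. Shmt1 encodes the cytosolic serine hydroxymethyltransferase (chr11:60661185-60708167, minus strand). Values of Shmt1 were 4.81, 4.81, and 4.91 in CTL, 5.56, 5.59, and 5.61 in DZ, 5.39, 5.42, and 5.54 in adenine, and 5.28, 5.21, and 5.26 in SAM. Every treated library exceeded every CTL library, with DZ the highest and SAM the lowest of the treated groups. The rise was 1.67-fold in DZ (0.74 ± 0.046, limma adjusted p = 4.53e-09), 1.52-fold in adenine (0.60 ± 0.046, limma adjusted p = 1.05e-08), and 1.33-fold in SAM (0.41 ± 0.046, limma adjusted p = 7.92e-07). Shmt1 shares 184 bases of exon sequence with Smcr8 on the opposite strand, which averaged 6.48 in CTL and 6.09 in SAM. Transcripts of Shmt1 and Psat1 also match at 93.1% over 203 bases, so reads could be shared. The Shmt1 gene also overlaps Top3a on the same strand.

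Mthfd1 encodes the trifunctional cytosolic enzyme that loads formate onto tetrahydrofolate and interconverts its products (chr12:76301984-76366588, plus strand). It measured 6.07, 6.06, and 6.07 in CTL, 6.15, 6.22, and 6.24 in DZ, 6.13, 6.12, and 6.25 in adenine, and 6.14, 6.09, and 6.18 in SAM. The treated libraries lay just above CTL and overlapped one another. The differences from CTL were 0.13 in DZ (limma adjusted p = 0.0113), 0.10 in adenine (limma adjusted p = 0.0433), and 0.07 in SAM, with a 95% interval of -0.02 to 0.15 (limma adjusted p = 0.147). The call depends on the settings. With plain read totals Mthfd1 passed in SAM at 0.19, in adenine at 0.16, and in DZ at 0.16. In DZ it also passed with robust eBayes, with a replicate block, and in a fit of DZ and CTL alone (0.13 each). It passed there without DZ replicate 1 as well (0.16).

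All 4 mitochondrial folate enzymes fell under SAM, by 1.37 to 3.48 on the log2 scale, and 3 of them fell under adenine. Shmt2, for the mitochondrial serine hydroxymethyltransferase, is at chr10:127352266-127358323 on the minus strand. It was at 9.57, 9.51, and 9.59 in CTL, 9.89, 9.89, and 9.91 in DZ, 9.63, 9.60, and 9.71 in adenine, and 8.16, 8.17, and 8.25 in SAM. The DZ libraries were the highest, adenine lay just above CTL without overlap, and SAM lay below all. Shmt2 mRNA was 2.58-fold lower in SAM (-1.37 ± 0.035, limma adjusted p = 2.07e-14), 1.26-fold higher in DZ (0.34 ± 0.035, limma adjusted p = 1.09e-06), and differed by 0.09 in adenine (limma adjusted p = 0.0325).

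Mthfd2, for the mitochondrial dehydrogenase and cyclohydrolase that is abundant in embryonic and dividing cells, is at chr6:83282673-83302890 on the minus strand. Mthfd2 was 7.90, 7.92, and 7.94 in CTL, 8.00, 8.04, and 7.98 in DZ, 7.44, 7.48, and 7.48 in adenine, and 6.05, 6.04, and 6.20 in SAM. No groups overlapped, and their order was DZ, CTL, adenine, and SAM. It was 3.53-fold lower in SAM (-1.82 ± 0.037, limma adjusted p = 2.05e-15) and 1.37-fold lower in adenine (-0.45 ± 0.037, limma adjusted p = 3.04e-08), with a difference of 0.09 in DZ (limma adjusted p = 0.0464). Mthfd1l encodes the synthetase that releases formate in mitochondria (chr10:3922870-4117081, plus strand). Its levels were 7.40, 7.37, and 7.34 in CTL, 7.35, 7.40, and 7.32 in DZ, 6.94, 6.99, and 7.07 in adenine, and 5.55, 5.54, and 5.46 in SAM. DZ and CTL overlapped, and both lay above adenine, which lay above SAM. Mthfd1l mRNA was 3.62-fold lower in SAM (-1.86 ± 0.038, limma adjusted p = 1.72e-15) and 1.29-fold lower in adenine (-0.37 ± 0.038, limma adjusted p = 3.05e-07), while in DZ it differed by -0.01, with a 95% interval of -0.09 to 0.07.

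Aldh1l2, for the mitochondrial 10-formyltetrahydrofolate dehydrogenase that oxidizes formyl groups to carbon dioxide, is at chr10:83323314-83370005 on the minus strand. Among the 9, Aldh1l2 had the largest fall. It stood at 9.89, 9.85, and 9.85 in CTL, 10.09, 10.09, and 10.08 in DZ, 9.09, 9.14, and 9.24 in adenine, and 6.37, 6.46, and 6.33 in SAM. The 4 groups were separate, in the order DZ, CTL, adenine, and SAM, and the recovered reads were 41917, 44190, and 42122 in CTL against 4925, 4998, and 4017 in SAM. Aldh1l2 mRNA in SAM was 8.97% of that in CTL, an 11.1-fold fall (-3.48 ± 0.037, limma adjusted p = 1.91e-18) that ranked 9 from the lowest of the 12591 genes. It fell 1.63-fold in adenine (-0.71 ± 0.037, limma adjusted p = 1.35e-10) and rose 1.16-fold in DZ (0.22 ± 0.037, limma adjusted p = 0.00014). Leaving out SAM replicate 3 gave -3.45 in SAM. The exons of Aldh1l2 share 1056 bases with Nopchap1 on the opposite strand, whose mean was 6.41 in CTL and 6.29 in SAM, and whether the reads were counted by strand is not given in the sources used here.

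**Figure D2:**
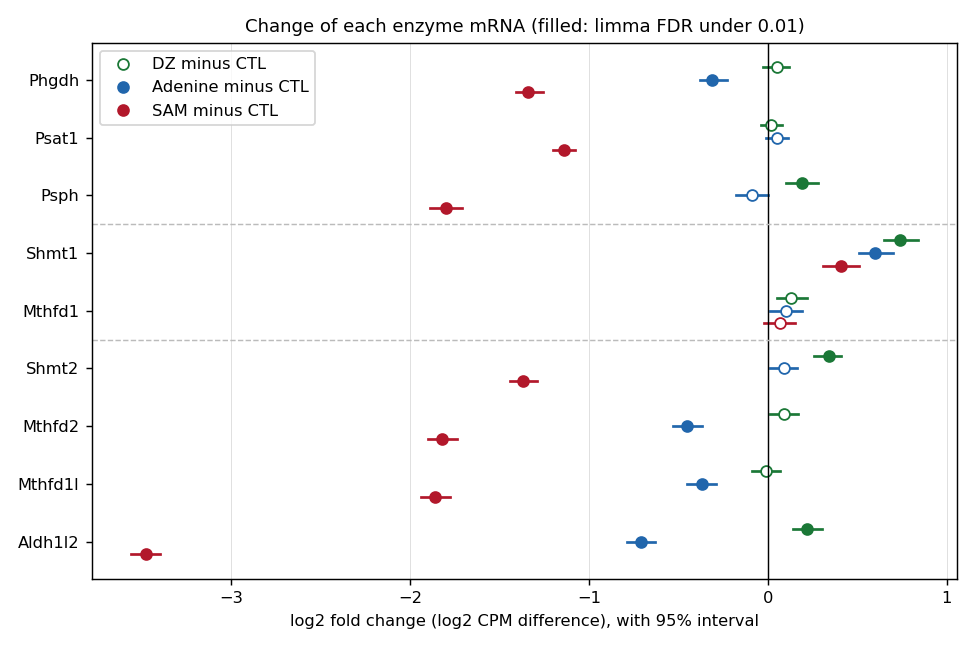
Log2 fold change from CTL (horizontal axis) of each enzyme mRNA in DZ, adenine, and SAM, with its 95% interval (lines), filled where the limma adjusted p was under 0.01. Dashed lines part the serine synthesis, cytosolic, and mitochondrial enzymes, and the SAM points run from 0.41 for Shmt1 to -3.48 for Aldh1l2.

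The treatments were also compared with one another in the same model, since a call against CTL in one treatment and not in another does not test their difference. Between SAM and adenine, given at the same concentration, 8 of the 9 mRNAs were lower in SAM and 0 were higher, against 22% and 20.8% of all genes. The median of the 9 was -1.37, whereas that of all genes was 0.000. Aldh1l2 was 6.83-fold lower in SAM than in adenine (-2.77 ± 0.037, limma adjusted p = 8.99e-17), ranking 3 from the lowest of all genes, and Psph was 3.26-fold lower (-1.71 ± 0.042, limma adjusted p = 7.62e-14). The differences of Mthfd1l, Shmt2, Mthfd2, Psat1, and Phgdh were -1.48, -1.46, -1.37, -1.19, and -1.03. Shmt1 was lower in SAM by 0.20 (limma adjusted p = 0.00206), a call that was lost with plain read totals (-0.14), without adenine replicate 3 (-0.15), or without SAM replicate 2 (-0.18). Mthfd1 differed by -0.03, with a 95% interval of -0.12 to 0.06.

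Compared with adenine, DZ had 6 of the 9 higher and 0 lower, against 32.1% and 32.2% of all genes, and the median of the 9 was 0.28. Aldh1l2 was 1.90-fold higher in DZ than in adenine (0.93 ± 0.037, limma adjusted p = 8.35e-12) and Mthfd2 1.46-fold higher (0.54 ± 0.037, limma adjusted p = 3.54e-09). The other differences that passed were 0.36 for Mthfd1l, 0.35 for Phgdh, 0.28 for Psph, and 0.25 for Shmt2, whereas those that did not were 0.14 for Shmt1, 0.04 for Mthfd1, and -0.03 for Psat1. Between SAM and DZ, 8 of the 9 were lower in SAM and 0 higher (35% and 34% of all genes), with a median of -1.70. This contrast held the widest gap of any member, 13-fold for Aldh1l2 (-3.70 ± 0.037, limma adjusted p = 1.29e-18). DZ was given at a concentration unlike that of the other compounds, so the size of its changes cannot be set against theirs at a matched dose.

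Paralogs and partner enzymes were then compared within each library, where a difference of log2 CPM does not depend on the library scaling. These differences are not per length, so that their change between groups can be read but not their size. Shmt2 minus Shmt1 was 4.76, 4.69, and 4.69 in CTL, 4.33, 4.29, and 4.31 in DZ, 4.24, 4.18, and 4.18 in adenine, and 2.88, 2.96, and 2.99 in SAM. The CPM ratio of mitochondrial to cytosolic serine hydroxymethyltransferase mRNA was thus lower in every treated library than in CTL, from a mean of 26.3 in CTL to 19.8 in DZ, 18.4 in adenine, and 7.69 in SAM. Mthfd1l minus Mthfd1, the mitochondrial and cytosolic formyltetrahydrofolate synthetases, was 1.33, 1.30, and 1.27 in CTL and 0.81, 0.87, and 0.81 in adenine, and it was below 0 in SAM at -0.59, -0.55, and -0.72. Mthfd2 minus Mthfd1 averaged 1.85 ± 0.021 (SD, n = 3) in CTL, 1.81 ± 0.057 in DZ, 1.30 ± 0.070 in adenine, and -0.04 ± 0.054 in SAM. For that pair the DZ and CTL libraries overlapped, while adenine and SAM each stood apart.

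Within a branch the enzymes did not move by equal amounts. Psat1 minus Phgdh was 0.13 ± 0.043 (SD, n = 3) in CTL and 0.11 ± 0.030 in DZ, but 0.49 ± 0.0068 in adenine and 0.33 ± 0.051 in SAM, so that Phgdh was lower relative to Psat1 in these groups. Aldh1l2 minus Mthfd1l went from 2.49 ± 0.011 in CTL to 2.73 ± 0.042 in DZ, 2.16 ± 0.0097 in adenine, and 0.87 ± 0.048 in SAM, with no overlap between groups. These differences are descriptions and were not tested.

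**Figure D3:**
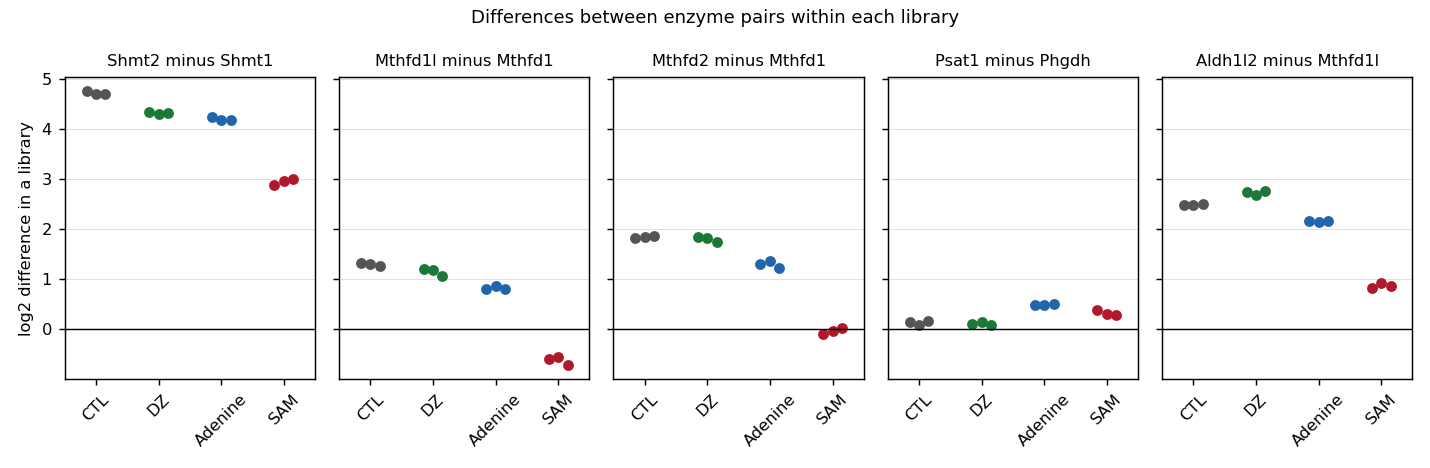
Log2 difference between the members of 5 enzyme pairs (vertical axis) in each of the 3 libraries of a group. Shmt2 minus Shmt1 falls from 4.72 in CTL to 2.94 in SAM on average, and the SAM points of Mthfd1l minus Mthfd1 are the only ones below 0 in that panel.

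Levels of different genes were compared per length, as log2 CPM per kb of merged exons in GENCODE vM39. In CTL the order from the highest was Phgdh at 7.70, Shmt2 at 7.52, Aldh1l2 at 6.96, Psat1 at 6.78, Mthfd2 at 6.04, Psph at 4.14, Mthfd1l at 3.83, Mthfd1 at 3.77, and Shmt1 at 2.15. No neighbours in that order overlapped between libraries, although Mthfd1l and Mthfd1 were only 0.03 apart at their nearest. In SAM the level per kb of Aldh1l2 was 3.48, between Mthfd1 at 3.84 and Shmt1 at 2.55, and Mthfd1l was the lowest of the 9 at 1.98. Phgdh and Shmt2 remained the most abundant in SAM, at 6.37 and 6.15, and in DZ and adenine Shmt2 (7.86 and 7.61) was above Phgdh (7.75 and 7.40). The order depends on the gene model. By the longest transcript Psat1 (7.83) was above Aldh1l2 (7.27) and Mthfd1l (4.85) above Psph (4.81) in CTL. In SAM, Psat1 (6.69) was then above Shmt2 (6.63).

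**Figure D4:**
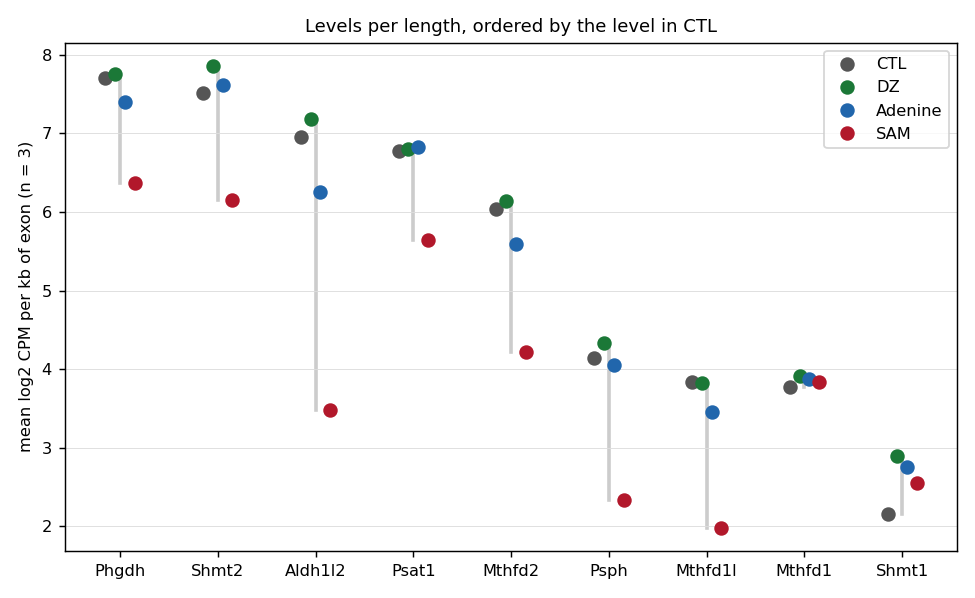
Mean log2 CPM per kb of exon (vertical axis, n = 3) of each enzyme mRNA in the 4 groups, ordered by the level in CTL, with a grey line from the lowest to the highest group. Aldh1l2 spans from 7.18 in DZ to 3.48 in SAM, whereas Mthfd1 lies between 3.77 and 3.91.

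Of 18 other genes of folate metabolism 14 were in the table. Under SAM 5 of them rose and 5 fell (median -0.02), near the shares of all genes, 33.7% higher and 35.7% lower. Under adenine 4 rose and 3 fell (median 0.07), against 30.6% and 31% of all genes, and under DZ 7 rose and 0 fell (median 0.25), against 22.6% and 23.4%. Tyms, for thymidylate synthase, which spends a one-carbon unit on thymidylate, averaged 4.35 ± 0.13 (SD, n = 3) in CTL and 5.94 ± 0.054 in SAM, with no overlap. It rose by 1.59 in SAM (limma adjusted p = 5.99e-11), by 1.24 in adenine, and by 0.35 in DZ, a call that was lost without CTL replicate 3 (0.29). Mthfd2l, the paralog of Mthfd2, fell by 0.49 in SAM and 0.56 in adenine and differed by less than 0.01 in DZ. Atic, which uses formyl folate in purine synthesis, fell by 0.68 in SAM and 0.46 in adenine, and Mtr, for methionine synthase, by 0.39 and 0.35. Slc25a32, which carries folate into mitochondria, rose by 0.31 in DZ and differed by 0.04 in adenine and -0.04 in SAM. The folate carrier Slc19a1, named after its values were seen, rose by 0.74 in DZ and 0.22 in adenine and differed by 0.01 in SAM.

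Of 25 genes that transport or use serine and glycine 18 were in the table, of which 11 fell and 2 rose under SAM (median -0.58), against 35.7% of all genes lower and 33.7% higher. Under adenine 10 fell and 3 rose (median -0.22), against 31% and 30.6%, and under DZ 5 fell and 9 rose (median 0.14), against 23.4% and 22.6%. Sars1, which charges tRNA with serine, was 9.61, 9.60, and 9.63 in CTL and 7.92, 7.94, and 7.96 in SAM, a fall of 1.67 (limma adjusted p = 1.06e-16), and it fell by 0.69 in adenine. The neutral amino acid transporter Slc1a5 fell by 2.42 in SAM, 1.11 in adenine, and 0.42 in DZ. The glycine transporter Slc6a9 fell by 2.29 in SAM and 0.60 in adenine, and the glycyl-tRNA synthetase Gars1 by 1.35 and 0.32. Gars1 rose by 0.32 in DZ. Sars1, Slc1a5, Slc6a9, and Gars1 were named because they had the smallest adjusted p of the list under SAM. The 2 genes that rose under SAM were Sars2, for the mitochondrial seryl-tRNA synthetase, by 0.59 and Sptlc1 by 0.18. Sars2 and Sptlc1 also rose in adenine, by 0.46 and 0.26, and were named after their values were seen.

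Known regulators of these enzymes include ATF4, which activates serine synthesis and mitochondrial folate genes, and MYC. The list called regulators here was written with earlier results of these data known. It also holds genes of the ATF4 response such as Trib3. Of its 18 measured genes 10 fell and 5 rose under SAM (median -0.51), against 35.7% of all genes lower and 33.7% higher. Under adenine 10 fell and 4 rose (median -0.28), against 31% and 30.6%. Under DZ 3 fell and 5 rose (median 0.07), near the 23.4% and 22.6% of all genes. Atf4 mRNA was 9.54, 9.51, and 9.56 in CTL and 8.45, 8.44, and 8.52 in SAM, a fall of 1.07 (limma adjusted p = 1.89e-14). It fell by 0.27 in adenine (limma adjusted p = 2.79e-07) and differed by -0.02 in DZ (limma adjusted p = 0.534). Trib3, a pseudokinase gene induced in the ATF4 response, fell by 4.05 in SAM and 1.25 in adenine. The bZIP factor genes Atf3, Ddit3, and Atf5 also fell in both, with log2 fold changes of -3.79, -2.88, and -2.64 in SAM and -1.63, -0.85, and -0.56 in adenine. In DZ, Atf3 and Ddit3 rose by 0.34 and 0.26 and Atf5 fell by 0.65. Myc fell by 0.69 in SAM and 0.31 in adenine and rose by 0.30 in DZ. The 5 regulators that rose under SAM were Eif2ak3 and Eif2ak4 by 0.52, Ehmt2 and Mtor by 0.27, and Eif2ak1 by 0.20. These were named after their values were seen. The part of the genes of this list in the changes of the 9 enzymes was not tested.

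All 15 genes of a list called S phase genes here were measured. It holds genes of DNA synthesis, a consumer of thymidylate and purines, and cell cycle genes such as Cdk1, Ccna2, and Mki67. Both under SAM and under adenine 14 rose and 1 fell (Mcm2), with medians of 1.63 and 1.28, whereas 33.7% and 30.6% of all genes rose. Thymidine kinase Tk1 rose by 3.00 in SAM and 2.36 in adenine, the helicase subunit Mcm4 by 1.76 and 1.36, and the ribonucleotide reductase subunits Rrm1 and Rrm2 by 1.63 and 1.74 in SAM. Under DZ 8 rose and 1 fell (median 0.11), against 22.6% and 23.4% of all genes, but that count of 9 came down to 5 without CTL replicate 1 or without DZ replicate 3. The part of cell cycle state in the changes of the 9 enzymes was not tested.

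**Figure D5:**
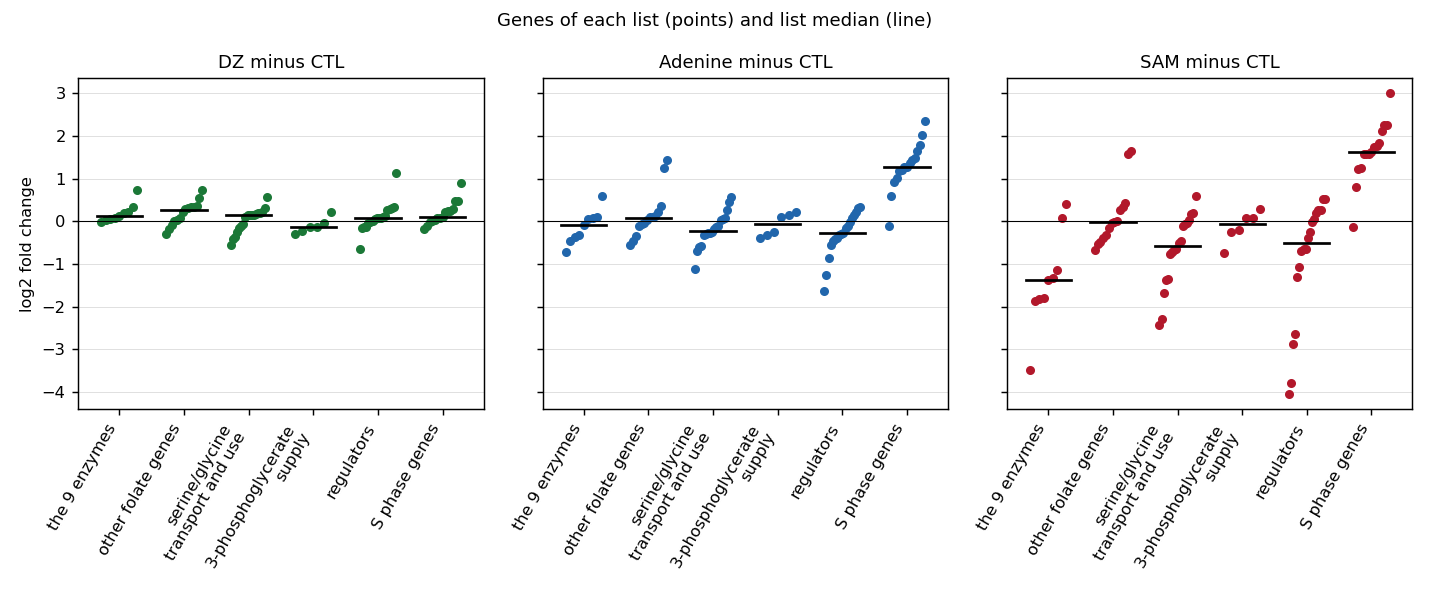
Log2 fold change from CTL (vertical axis) of the genes of each list (points) with the list median (line) under DZ, adenine, and SAM. Under SAM the median is -1.37 for the 9 enzymes, -0.02 for other folate genes, -0.51 for regulators, and 1.63 for S phase genes.

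Among the 10310 genes that averaged 3 log2 CPM or more, those most like each branch over the 12 libraries were found by Pearson's r with the mean of its centred log2 values. These r are descriptions, as the libraries fall into 4 groups that set most of their value. The serine synthesis branch was most like Chac1, a glutathione-degrading enzyme gene (r = 0.9967), Vldlr, a lipoprotein receptor gene (0.9955), and Pycr1, for a proline synthesis enzyme (0.9951). The mitochondrial branch was most like Vldlr (0.9979), the tRNA exporter gene Xpot (0.9979), and the membrane linker gene Ezr (0.9974). Under SAM these fell by 2.54 (Chac1), 2.77 (Vldlr), 2.18 (Pycr1), 1.19 (Xpot), and 0.78 (Ezr). The mean of the cytosolic pair was most like Dcakd (0.9720), Ccbe1 (0.9666), and Tmbim6 (0.9655), which rose in all 3 treatments. Ccbe1 rose by 0.79 in DZ, 0.62 in adenine, and 0.39 in SAM. That mean followed Shmt1 (r = 0.994) more closely than Mthfd1 (0.883), which passed the test in no treatment. More than 0.9 was reached by 556 genes for the serine synthesis branch, 710 for the mitochondrial branch, and 57 for the cytosolic pair.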

How the data were processed

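Polyadenylated RNA of 12 dishes, 3 in each of 4 groups named by the labels, was sequenced with a stranded kit. The authors trimmed reads with Trimmomatic, aligned them to GRCm39 with HISAT2 guided by GENCODE vM27, quantified them with StringTie, kept genes that reached 1 CPM in each sample, and deposited log2 CPM on normalized library sizes from edgeR. How the scaling factors were made is not given in the sources used here. The authors' own comparisons were not used.

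The deposited log2 values were turned back into reads with a prior count of 2, and 100% of values lay within 0.01 of a whole read. These depths limit counting error only. The deposited log2 values were tested with limma 3.58.1 in R 4.3.3 (lmFit, contrasts, trended eBayes) across the 4 groups together, with Benjamini-Hochberg adjustment and FDR under 0.01, a limma test standing in for the count test of the study. The model and the read recovery were tested on simulated data. GENCODE vM39 matched 12575 of 12591 identifiers. Similar transcripts were sought with blastn 2.17.0, and Python 3.11.15 was used for tables and plots.

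The members, the 5 gene lists, and the naming rule were chosen with earlier results of these data known. Named genes are the members, 8 genes fixed by name, up to 4 per list with the smallest adjusted p under SAM, and 3 per branch with the highest r. Some genes picked by this rule are not reported here. Alternatives were no variance trend, robust eBayes, a mean of at least 3 log2 CPM, a pseudocount of 1 CPM, median centring, plain read totals, voom on recovered reads, FDR under 0.05, separate fits, a replicate block, leaving out each library, and the longest transcript as length. Deviations of same-numbered libraries had r of -0.142 to 0.181. Low r cannot exclude shared handling by replicate number, so whether the numbers pair the dishes is not known.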

Additional observations from a re-analysis of the deposited data

How the results depend on the processing

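For the members, 839 of the alternative values stayed on the same side of the threshold, 22 passed it in addition, and 3 no longer passed. For the other named genes the numbers were 1538, 17, and 29. No value that passed changed sign, but 9 values of Psat1, Mthfd1l, and Mthfd1 and 16 of other named genes, none past the threshold, did. The fall of Aldh1l2 under SAM ranged from -3.52 to -3.36 and that of Psat1, the least, from -1.18 to -1.02. Leaving out 1 library at a time gave 4 to 5 members called for DZ, 5 to 6 for adenine, and 8 each time for SAM. Whether the replicate numbers pair the dishes is not known. With a replicate block the members called were 5 for DZ (Mthfd1 added at 0.13), 6 for adenine (Shmt2 added at 0.09), and 8 for SAM. Between treatments they were 8 for SAM against adenine, 7 for DZ against adenine, and 8 for SAM against DZ.

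With plain read totals 8 members were called for adenine, 4 higher and 4 lower, instead of 5. This scaling lifts all treated values relative to CTL, by construction. The regulators called for DZ were 13 at FDR under 0.05 instead of 8. The S phase genes called for DZ were 5 without a variance trend and 5 to 8 when 1 library was left out, instead of 9, and the cause was not tested. A pseudocount of 1 CPM gave Shmt2 minus Shmt1 as 4.67 in CTL and 4.28 in DZ. By the longest transcript the levels per kb in CTL were 8.24 for Phgdh, 7.83 for Psat1, 4.81 for Psph, 2.79 for Shmt1, 4.32 for Mthfd1, 7.99 for Shmt2, 6.79 for Mthfd2, 4.85 for Mthfd1l, and 7.27 for Aldh1l2, since that length is shorter than the merged exons. With 3 dishes a group and no separate cell sources named, small differences such as those of Mthfd1 were not resolved.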

Other observations

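All 6 genes of a list around 3-phosphoglycerate, the substrate of PHGDH, were in the table. Gapdh and Pgk1 lead to 3-phosphoglycerate, whereas Pgam1, Eno1, and Pkm act after it in glycolysis. Under SAM 1 rose and 2 fell (median -0.06), against 33.7% of all genes higher and 35.7% lower. Under adenine 2 rose and 3 fell (median -0.07), against 30.6% and 31%, and under DZ 1 rose and 2 fell (median -0.14), against 22.6% and 23.4%. With 6 genes these counts are not read as a change of the list. Pgk1, for the kinase that makes 3-phosphoglycerate, was 8.60, 8.63, and 8.60 log2 CPM in CTL and 7.83, 7.85, and 7.92 in SAM, a log2 fold change of -0.74 (limma adjusted p = 6.26e-11), and it fell by 0.33 in adenine. Eno1, for enolase, rose by 0.29 in SAM and 0.22 in adenine, while Pkm, for pyruvate kinase, fell by 0.20 and 0.25. Gapdh differed by -0.25 in SAM (limma adjusted p = 0.0191) and fell by 0.38 in adenine. Its mean in CTL was only 5.31 log2 CPM, against 10.32 for Pkm, and whether reads of Gapdh were lost was not tested.

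The glycine cleavage system, which feeds one-carbon units to mitochondrial folate from glycine, was represented by Dld, Gcsh, and Amt, named after their values were seen, whereas Gldc was not in the table. Dld fell by 0.51 in SAM and 0.58 in adenine and rose by 0.15 in DZ. Gcsh and Amt differed from CTL by -0.03 and -0.06 in SAM, and neither passed the test there. In DZ, Amt fell by 0.55 and Gcsh rose by 0.11.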
